A study of Mus musculus with 8 samples.

Results

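The genes described here carry out or regulate antigen presentation by the major histocompatibility complex (MHC) of the mouse. They were chosen by name: every gene whose symbol starts with H2-, plus B2m, Cd74, Ciita, Nlrc5, Tap1, Tap2, Tapbp, Tapbpl, Psmb8, Psmb9, Psmb10, Psme1, Psme2, Erap1 and Cd1d1. The rule uses no measured value. It matched 60 symbols, of which 42 were among the 15948 genes of the deposited table: 27 of 45 H2- symbols and all 15 others. The 18 symbols not listed there are not analysed here. They were mostly members of the H2-M10 family and other H2-M, H2-Q and H2-T genes, but also H2-Ea-ps, H2-Pa and H2-Pb. No alpha chain gene of the class II E molecule is thus among the 42. By role, the 42 genes were 16 class I heavy chain genes, 12 genes of the class I pathway, 11 class II genes and 3 other H2- genes.

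MHC molecules hold peptides at the cell surface, where T cells read them. Class I molecules pair a heavy chain with the light chain B2m and are made by nearly all nucleated cells; their peptides are cut by the proteasome, carried into the endoplasmic reticulum by the TAP transporter and loaded there with the help of tapasin. Class II molecules pair an alpha with a beta chain, travel with the invariant chain Cd74, are loaded in endosomes with the help of H2-DM, and are made mainly by dendritic cells, macrophages and B cells. Their transcription depends on the coactivator Ciita, whereas the related Nlrc5 acts on class I genes. In the kidney, class II is found mostly on resident phagocytes, and interferon gamma can induce it on tubule cells.

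RNA came from mouse kidney, in 5 libraries labelled Sglt2Cre_DOCA (called controls here) and 3 labelled Arhgef11Sglt2_DOCA. The series title names a knockout of Arhgef11, a guanine nucleotide exchange factor for the GTPase RhoA, in the proximal tubule; Sglt2 is the proximal tubule glucose transporter whose promoter is used to drive Cre there. Both groups carry DOCA, an abbreviation the labels do not spell out and which in work on hypertension usually means deoxycorticosterone acetate, so no comparison with untreated kidney is made here. The labels state no strain, sex, age or dose, the genotype field holds no entry for any library, and the protocol says only that the kidneys came from studies 2 and 3 without saying which kidney came from which. Nothing in the labels says that each library is a separate animal, and the p-values then reflect only how these libraries vary, which may be partly technical.

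Estimated depth was 33100000 to 59600000 reads per control library and 51300000 to 57900000 per Arhgef11Sglt2 library, and all values are normalized counts recovered from the authors' log2 scale. Arhgef11 itself had 3680 ± 161.6 normalized counts in the controls (SD, n = 5) and 3587 ± 564.1 in the Arhgef11Sglt2 group (SD, n = 3), a log2 difference of -0.04 (limma adjusted p = 0.834), and the groups overlapped. Its levels in Arhgef11Sglt2 replicates 1, 2 and 3 were 2935, 3919 and 3905. Only replicate 1 thus lay below every control (3479 to 3928). Bulk kidney RNA may also hold Arhgef11 transcripts of other cell types, so these values do not measure its loss in the proximal tubule. Kidney tubule markers were present at high levels in every library, but their sum was lower in the Arhgef11Sglt2 group. Over 9 tubule and glomerulus markers it was 680099 to 698997 normalized counts in the controls. In Arhgef11Sglt2 replicates 1, 2 and 3 it was 531511, 596557 and 480557. What this difference does to the values of other cell types was not tested. The numbers in the library names fall into a lower range (control replicates 1, 2 and 3 and Arhgef11Sglt2 replicates 1 and 2) and an upper range (control replicates 4 and 5 and Arhgef11Sglt2 replicate 3), with a gap between; the labels do not say whether these are the separate studies.

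The promoters of 5 class I and class II genes are printed here because the values turn on these genes. Each is the 250 bases before the RefSeq transcription start, in the direction of transcription, on chromosome 17 of GRCm38.p6, which is not the build of the deposited table (GRCm39). Capitals mark matches, on either strand, to 4 motifs that were chosen after the sequences were read: ATGNTGC (from the X box), TGATTGG (the Y box, a CCAAT motif), GGGGATT (from a kappa B site) and TTTCACT (from an interferon response element). No 2 matches overlap in the printed sequences. For H2-K1, which has 2 RefSeq starts, the downstream start was used.
H2-Aa (chr17:34287824-34288073, minus strand): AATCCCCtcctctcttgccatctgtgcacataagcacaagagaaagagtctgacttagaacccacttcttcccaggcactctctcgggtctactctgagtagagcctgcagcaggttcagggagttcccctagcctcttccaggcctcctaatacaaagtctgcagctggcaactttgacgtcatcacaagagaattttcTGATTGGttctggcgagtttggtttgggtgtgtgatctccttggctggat
H2-Eb1 (chr17:34305617-34305866, plus strand): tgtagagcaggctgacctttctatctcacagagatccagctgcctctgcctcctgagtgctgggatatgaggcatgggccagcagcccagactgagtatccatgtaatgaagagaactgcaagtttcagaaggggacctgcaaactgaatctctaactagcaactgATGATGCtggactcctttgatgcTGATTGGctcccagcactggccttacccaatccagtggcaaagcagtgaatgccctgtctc
H2-K1 (chr17:34000334-34000583, minus strand): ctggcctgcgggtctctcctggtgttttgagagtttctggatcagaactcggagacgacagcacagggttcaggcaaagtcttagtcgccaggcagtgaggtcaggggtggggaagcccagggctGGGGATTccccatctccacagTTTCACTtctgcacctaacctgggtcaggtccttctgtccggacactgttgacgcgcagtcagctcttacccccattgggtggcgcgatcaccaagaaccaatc
H2-D1 (chr17:35262844-35263093, plus strand): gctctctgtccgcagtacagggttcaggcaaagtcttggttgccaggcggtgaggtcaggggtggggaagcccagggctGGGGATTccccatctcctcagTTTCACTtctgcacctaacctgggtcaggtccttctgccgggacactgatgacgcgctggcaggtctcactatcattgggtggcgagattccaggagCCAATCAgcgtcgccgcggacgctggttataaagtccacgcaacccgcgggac
H2-Q4 (chr17:35379367-35379616, plus strand): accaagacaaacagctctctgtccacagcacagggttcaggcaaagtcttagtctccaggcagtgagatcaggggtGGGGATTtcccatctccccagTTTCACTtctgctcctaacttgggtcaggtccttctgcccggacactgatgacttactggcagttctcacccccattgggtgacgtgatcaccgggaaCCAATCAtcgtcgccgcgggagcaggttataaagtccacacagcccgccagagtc

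Of the 42 genes, 30 have an entry among the 32851 RefSeq promoter windows. The X box letters were found in 5 of 8 class II genes with an entry, in 1 of 11 class I genes and in 1 of 9 class I pathway genes, against 9.06% of all windows. The Y box letters are in 4 of the 5 printed promoters, of both classes. The exception is H2-K1, whose window ends in ccaatc, so that a match there would be cut by its edge. The kappa B letters are in 4, also of both classes (not in H2-Eb1), and the X box letters only in H2-Eb1. In H2-Eb1 they begin 84 bases before the start, and the Y box begins at 61. The Y box letters occurred in 7 of 8 class II genes, 6 of 11 class I genes and 2 of 9 class I pathway genes, against 7.23% of all windows. The kappa B letters were in 6 of 11 class I genes and in 1 of 8 class II genes, against 2.76% of all windows. The interferon response letters were in 8 of 11 and 0 of 8, against 3.7%. In H2-D1 and H2-Q4 the kappa B match begins 171 and 174 bases before the start, and the interferon response match follows it at 150 and 153. These are matches to letters, not bound sites, and the absence of a match says only that those letters are not in the window.

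No member passed the test between the groups (limma, Benjamini-Hochberg adjusted over all 15948 genes, threshold 0.05), against 2.22% of all genes, 354 in number, of which 100 were higher and 254 lower in the Arhgef11Sglt2 group. With every library scaled to an equal total, 149 were higher and 178 lower. Before adjustment, 3 of the 42 genes had p under 0.05 (Tapbp, H2-Bl and H2-Ob), a share below the 21.1% of all genes that did. In 3 genes (H2-Bl, H2-Ob and H2-Ke6) the groups did not overlap, against 14.3% of all genes. The median log2 difference was -0.03 over the 42 genes, -0.00 over class I heavy chains, 0.04 over the class I pathway and -0.12 over class II, beside -0.01 over all genes. All 11 class II genes had a negative difference, from -0.33 to -0.01, as did 52.1% of all genes. That count rests on Arhgef11Sglt2 replicate 3: without it 7 of the 11 were positive (Cd74, Ciita, H2-Ab1, H2-Eb1, H2-DMa, H2-DMb1 and H2-DMb2) and the class II median was 0.04, and with a replicate block 4 were positive. Without control replicate 4, 3 were positive, and without control replicate 3 or with equal totals, 1. The values that follow show libraries of the Arhgef11Sglt2 group lying apart from one another, by more in class II than in class I.

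**Figure D1:**
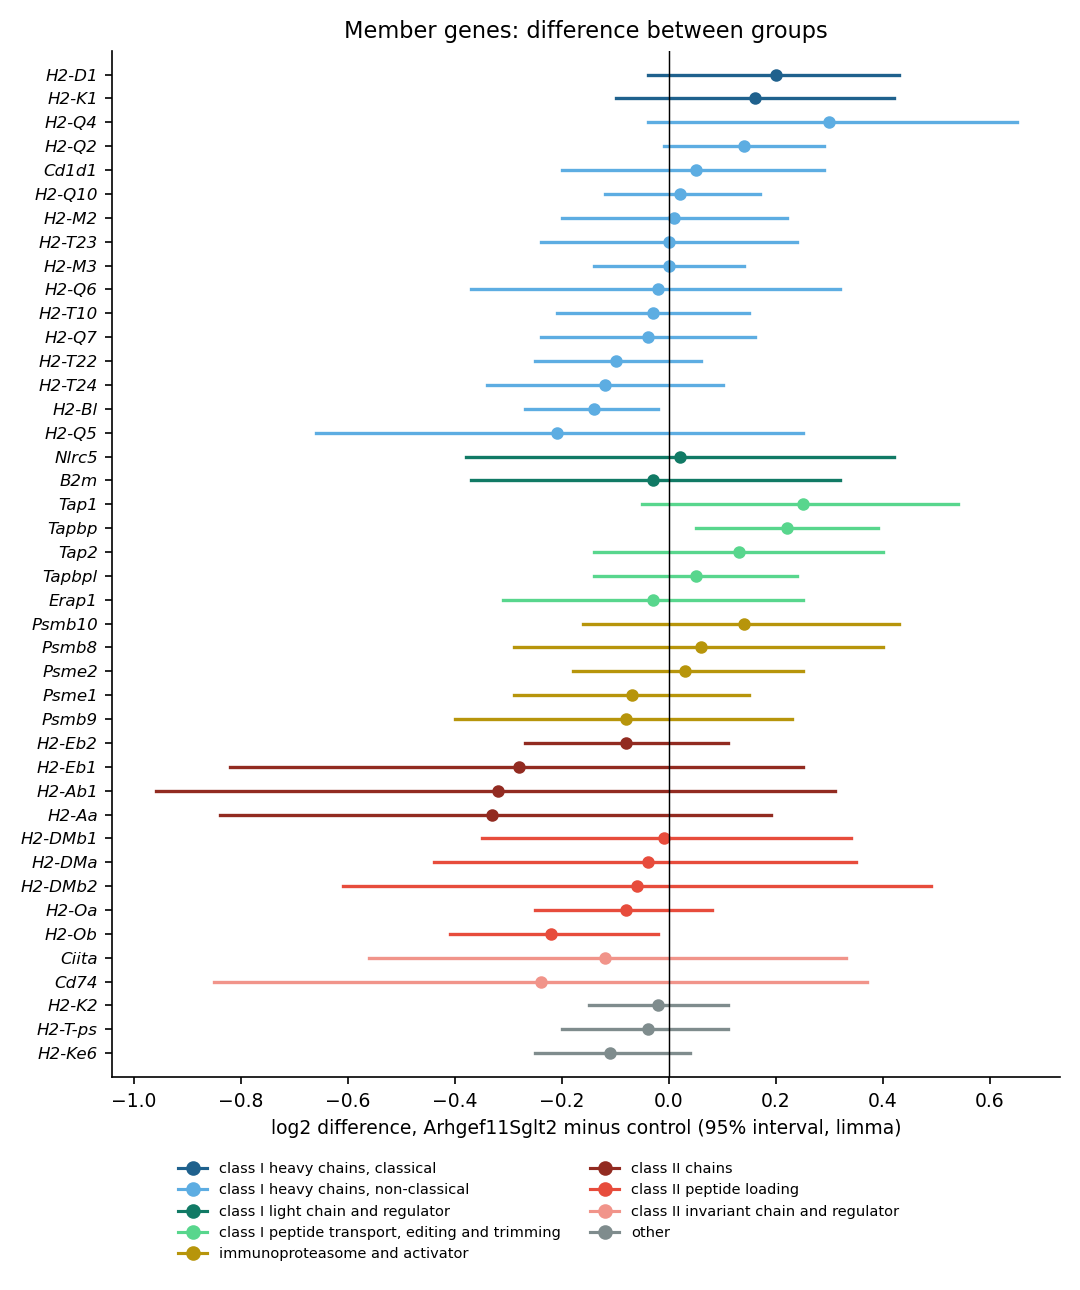
Log2 difference between the Arhgef11Sglt2 group (n = 3) and the controls (n = 5) for each of the 42 genes (points), with its 95% interval from limma (lines), colored by role. All 11 class II genes lie below 0, but 7 of them lie above 0 without Arhgef11Sglt2 replicate 3, and no gene passed the adjusted threshold.

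The class II chains form the peptide-binding molecule itself. H2-Ab1, the beta chain of the A molecule, had 6611, 7144, 7585, 10634 and 9572 normalized counts in control replicates 1 to 5. In Arhgef11Sglt2 replicates 1, 2 and 3 it had 11437, 6158 and 3676. Replicate 1 thus lay above every control and replicates 2 and 3 below every control. The group means were 8309 ± 1715 (SD, n = 5) and 7090 ± 3964 (SD, n = 3), with a log2 difference of -0.32 (SE 0.28, limma adjusted p = 0.55). The highest Arhgef11Sglt2 library had 3.11 times the level of the lowest.

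H2-Aa, the alpha chain that pairs with it, had 7281, 7639, 7743, 10819 and 10317 normalized counts in the controls and 10370, 6802 and 4363 in the Arhgef11Sglt2 libraries. Its replicate 1 lay within the control range, and replicates 2 and 3 lay below it (log2 difference -0.33, SE 0.23, limma adjusted p = 0.449). H2-Eb1, the beta chain of the E molecule, had 5965, 6811, 6789, 8955 and 8067 in the controls and 9601, 5617 and 3658 in the Arhgef11Sglt2 group. It followed H2-Ab1, with replicate 1 above and replicates 2 and 3 below all controls (log2 difference -0.28, SE 0.24, limma adjusted p = 0.532). H2-Eb2, a minor beta chain gene, was near the detection limit, at 1.001 to 22.34 normalized counts in the controls and 19.38, 2.659 and 2.536 in the Arhgef11Sglt2 libraries. At that level no difference of its size was detectable.

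Cd74, the invariant chain that blocks the class II groove until loading, was the most abundant class II gene. It had 17238, 18796, 19376, 27651 and 27044 normalized counts in the controls and 29240, 18424 and 11096 in the Arhgef11Sglt2 group. Replicate 1 was above all controls, replicate 2 within them and replicate 3 below them (log2 difference -0.24, SE 0.27, limma adjusted p = 0.654). Ciita, the coactivator on which class II transcription depends, had 683.2, 568.3, 712.7, 1238 and 1008 in the controls and 1138, 634 and 489.4 in the Arhgef11Sglt2 libraries. Its order across the 3 libraries was that of the chains, although replicate 1 did not exceed the highest control (log2 difference -0.12, SE 0.20, limma adjusted p = 0.777).

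**Figure D2:**
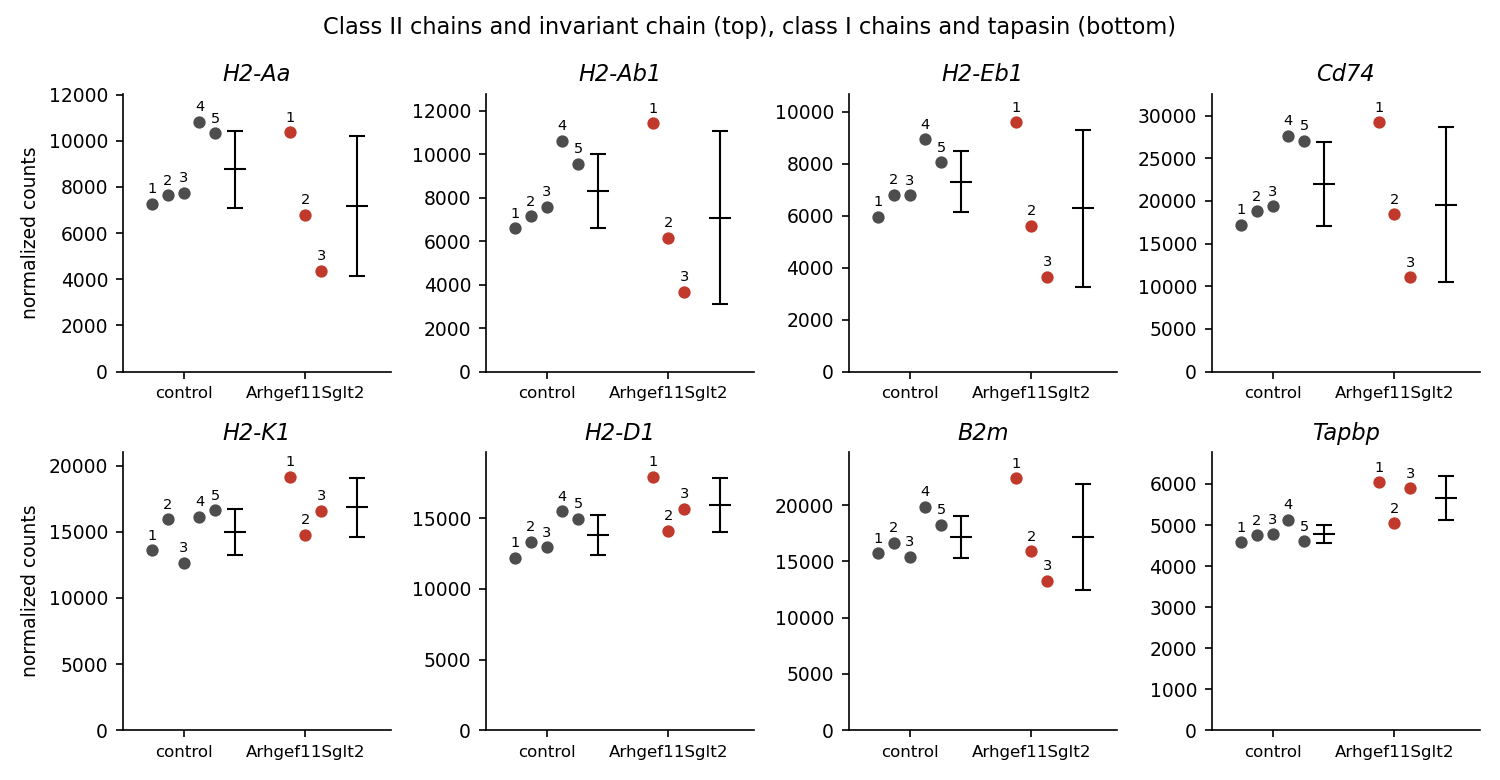
Normalized counts of 8 genes in each library, numbered by replicate, for controls (grey) and the Arhgef11Sglt2 group (red); black marks give the mean and SD, n = 5 and n = 3. For H2-Aa, H2-Ab1, H2-Eb1 and Cd74 replicate 3 lies below every control, whereas for H2-K1, H2-D1 and Tapbp it does not.

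The peptide-loading genes showed the same order. H2-DMa and H2-DMb1 encode the exchange factor that removes the invariant chain remnant. H2-DMa had 704.8 to 1067 normalized counts in the controls and 1243, 750.2 and 455 in the Arhgef11Sglt2 libraries, and H2-DMb1 had 1273 to 1728 and 1996, 1499 and 959.9. H2-DMb2, a second DM beta chain gene, spread furthest of this set, with 301.2, 210.6, 296.6, 490.5 and 320.1 in the controls and 679.4, 301 and 73.52 in the Arhgef11Sglt2 libraries. In all 3 genes replicate 1 was above and replicate 3 below every control, so that group differences were -0.06 to -0.01 on the log2 scale and no test was near its threshold. H2-DMb1 and H2-DMb2 share 31.4% and 36.4% of their 31-base transcript words with other genes in the GENCODE M21 transcripts, so the division of reads between them is uncertain.

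H2-Oa and H2-Ob encode the DM inhibitor, which is known from B cells. Both were low. H2-Ob, the loading gene with the largest difference, had 55.2, 47.14, 59.47, 53.9 and 134.3 normalized counts in the controls and 36.49, 32.82 and 25.01 in the Arhgef11Sglt2 libraries. The groups did not overlap (log2 difference -0.22, SE 0.09, limma adjusted p = 0.19; two-sided exact permutation p = 0.0536), and control replicate 5 stood apart from the other controls. H2-Oa had 9.496 to 39.25 in the controls and 19.28, 14.36 and 5.116 in the Arhgef11Sglt2 libraries, with overlap.

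Across the 11 class II genes, replicate 1 of the Arhgef11Sglt2 group lay above all controls in 6, against 22.5% of all genes. Replicate 3 lay below all controls in 10, the exception being H2-Eb2, against 33.3% of all genes, and above all controls in 0, against 28.6%. Both held together in 6 class II genes, 5 class I pathway genes and 1 class I heavy chain gene, against 5.14% of all genes. In 11 of 11 class II genes replicate 1 was higher than replicate 2 and replicate 2 higher than replicate 3, an order found in 24.1% of all genes. For H2-Eb2, near the detection limit, replicates 2 and 3 were almost tied (2.659 and 2.536 normalized counts), and H2-Oa and H2-Ob were also low. All 8 class II genes with a control mean of at least 100 had this order, beside 3091 of all 12719 genes at that level. The 11 genes are measured in the same 3 libraries, so these counts are not independent of one another. The median range across the 3 libraries was 0.92 on the log2 scale for class II, beside 0.52 for the class I pathway, 0.27 for class I heavy chains and 0.23 for all genes. In the 5 controls the medians were 0.54, 0.34, 0.31 and 0.23. By this range H2-Ab1 stood at the percentile 99.7 of all genes, H2-DMb2 and Cd74 at 99.5, H2-Eb1 at 99.4 and H2-Aa at 99.0.

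**Figure D3:**
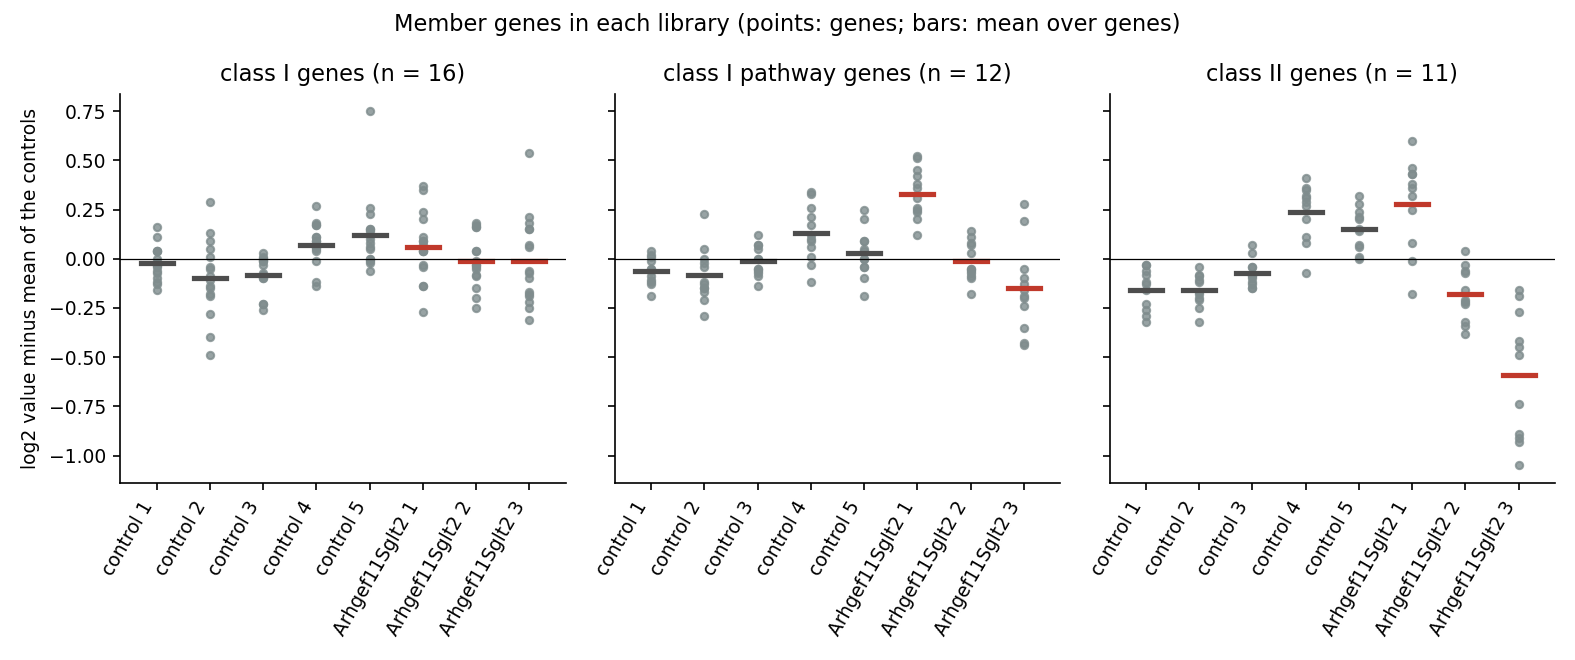
Log2 value minus the mean of the controls, for each gene (points) in each of the 8 libraries, by class; thick bars are the mean over the genes of the class. Class II means in Arhgef11Sglt2 replicates 1, 2 and 3 are 0.28, -0.18 and -0.59, and class I means are 0.06, -0.01 and -0.01.

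The classical class I heavy chains, H2-K1 and H2-D1, present cytosolic peptides to CD8 T cells. H2-K1 had 13606, 15960, 12658, 16150 and 16642 normalized counts in the controls and 19161, 14773 and 16611 in the Arhgef11Sglt2 libraries. H2-D1 had 12207, 13343, 12945, 15517 and 14982, and 17946, 14128 and 15687. Replicate 1 was above every control for both genes, and replicate 3, the lowest library for class II, was within the control range for H2-K1 and just above it for H2-D1. The log2 differences were 0.16 (SE 0.12, limma adjusted p = 0.459) and 0.20 (SE 0.11, limma adjusted p = 0.313). The highest of the 3 libraries had 1.30 times the lowest for H2-K1 and 1.27 times for H2-D1, beside 3.11 times for H2-Ab1. H2-K1 and H2-D1 share 22.8% and 26.7% of their 31-base words with other genes, class II chains at most 1.4%.

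The 14 non-classical heavy chain genes, whose products present restricted peptide sets, lipids or ligands of innate receptors, had differences from -0.21 to 0.30. These are log2 differences on the deposited scale, which compresses low genes. H2-Q4 had the largest, with 2004, 1439, 1890, 2570 and 2550 normalized counts in the controls and 2439, 2355 and 3221 in the Arhgef11Sglt2 libraries. Only replicate 3 was above the control range (log2 difference 0.30, SE 0.16, limma adjusted p = 0.296). H2-T23, whose product Qa-1 is the ligand of the receptor NKG2A on natural killer cells, had 3322 to 4255 in the controls and 3929, 4282 and 3058 in the Arhgef11Sglt2 group (log2 difference -0.00). H2-Bl, at 5.609 to 13.22 in the controls and 0, 4.589 and 5.267 in the Arhgef11Sglt2 libraries, did not overlap between groups (log2 difference -0.14, limma adjusted p = 0.179; two-sided exact permutation p = 0.0179, the smallest the design allows). These are very low counts, and the mean was 3.1-fold lower in the Arhgef11Sglt2 group (3.285 against 10.19). H2-Q5 had 583.5 normalized counts in control replicate 5 and 115.1 to 164.8 in the other controls, with 120.7 to 152.4 in the Arhgef11Sglt2 group.

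Cd1d1, which presents lipids to natural killer T cells, had 58.58 to 206.4 normalized counts in the controls and 102.3 to 157.2 in the Arhgef11Sglt2 libraries. H2-M3, which presents formylated peptides, had 145.6 to 209 and 160.6 to 210.7. The remaining non-classical genes ranged from H2-M2, with a control mean of 21.59, to H2-T22, with 3060. H2-M2 was the 1 heavy chain gene with replicate 1 (54.07) above and replicate 3 (5.191) below every control (12.23 to 38.97). Of the 14 genes, 8 share over 30% of their words with other genes (H2-Q5 57.8%, H2-T22 51.0%, H2-T10 50.7%, H2-Q6 50.3%, H2-Q7 39.1%, H2-Q4 38.4%, H2-Q2 32.2%, H2-Q10 30.3%), and their separate levels are uncertain to that extent.

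B2m, the light chain of every class I molecule, had the library order of the class II genes, which the classical heavy chains did not. It had 15710, 16669, 15413, 19846 and 18235 normalized counts in the controls and 22383, 15890 and 13270 in the Arhgef11Sglt2 group, with replicate 1 above and replicate 3 below every control. Its group means were 17175 ± 1855 (SD, n = 5) and 17181 ± 4692 (SD, n = 3), so the means were nearly equal and the SD was larger in the Arhgef11Sglt2 group (log2 difference -0.03, SE 0.15, limma adjusted p = 0.944). Nlrc5, the class I coactivator, had 750.2, 513.2, 652.1, 1021 and 715.8 in the controls and 1043, 835.2 and 422.3 in the Arhgef11Sglt2 libraries. It too had replicate 1 above and replicate 3 below all controls (log2 difference 0.02, SE 0.18, limma adjusted p = 0.966).

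Tapbp, which encodes tapasin, the bridge between TAP and the class I heavy chain, had the lowest p of the class I genes. It had 4583, 4756, 4778, 5128 and 4608 normalized counts in the controls and 6036, 5037 and 5892 in the Arhgef11Sglt2 libraries, with replicates 1 and 3 above all controls. The log2 difference was 0.22 (SE 0.07; limma p = 0.0152 before and 0.14 after adjustment; two-sided exact permutation p = 0.0357). It was 0.21 within the lower range of library numbers and 0.25 within the upper one. Tap1, a subunit of the peptide transporter, had 910.5, 810.8, 905.8, 1350 and 934.4 in the controls and 1589, 1005 and 1170 in the Arhgef11Sglt2 group, with only replicate 1 above all controls (log2 difference 0.25, SE 0.13, limma adjusted p = 0.319). Its partner Tap2 had 1235 to 1616 and 2026, 1534 and 1225 (log2 difference 0.13). Tapbpl, a tapasin relative that edits peptides, had 626.9 to 790.8 and 947.8, 701.5 and 701.7, and Erap1, the aminopeptidase that trims peptides, had 2888 to 4125 and 3944, 3226 and 2780.

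The immunoproteasome replaces the catalytic subunits of the standard proteasome where interferon acts and in leukocytes. Psmb8 had 774, 708.9, 896.8, 1154 and 976.3 normalized counts in the controls and 1393, 814.9 and 720.2 in the Arhgef11Sglt2 libraries. Psmb9 had 326.5, 300.9, 348.9, 420.2 and 482.9, and 522.3, 336.7 and 188. Psmb10 had 780, 751.2, 822.2, 669.3 and 805, and 1281, 836 and 618.5. Replicate 1 was above all controls in these 3 subunits, and replicate 3 was below all controls for Psmb9 and Psmb10. The log2 differences were 0.06 for Psmb8, -0.08 for Psmb9 and 0.14 for Psmb10 (limma adjusted p = 0.871, 0.784 and 0.594). The activator subunits Psme1 and Psme2 varied less, with ranges over the 3 libraries of 0.30 and 0.34 against 0.65 to 0.70 for the catalytic subunits.

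The 3 other H2- genes are members by name. H2-Ke6 encodes a hydroxysteroid dehydrogenase rather than an MHC chain. It had 2152, 1885, 1800, 1855 and 1859 normalized counts in the controls and 1757, 1684 and 1766 in the Arhgef11Sglt2 group, without overlap (log2 difference -0.11, SE 0.07, limma adjusted p = 0.381; two-sided exact permutation p = 0.0536). It shares 76.1% of its words with an overlapping gene model. H2-K2 and H2-T-ps were low, with control means of 83.82 and 62.03 and overlapping groups.

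Per kilobase of transcript, the order of control levels was B2m (19970 normalized counts per kilobase), Cd74 (15620), H2-K1 (9267), H2-Aa (7766), H2-Ab1 (6856), H2-D1 (6565) and H2-Eb1 (4384). H2-Aa and H2-Ab1 differed by less than the spread of either over the controls, and so did H2-Ab1 and H2-D1.

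Set against each other per library, summed class II chains were lower relative to class I in Arhgef11Sglt2 replicates 2 and 3 than in any control. The 16 class I heavy chain genes summed to 38952, 40721, 38369, 46810 and 46738 normalized counts in control replicates 1 to 5 and to 50989, 43015 and 45283 in Arhgef11Sglt2 replicates 1, 2 and 3. The 4 class II chain genes summed to 19867, 21594, 22135, 30430 and 27974 in the controls and to 31428, 18580 and 11699 in the Arhgef11Sglt2 group. Relative to the control mean, class II chains were at 1.29, 0.76 and 0.48 in these 3 libraries and class I heavy chains at 1.20, 1.02 and 1.07.

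The ratio of class I to class II was 1.54 to 1.96 in the controls and 1.62, 2.32 and 3.87 in Arhgef11Sglt2 replicates 1, 2 and 3. Replicate 1 thus lay within the control range and the other two above it. On the log2 scale relative to the controls the ratio was -0.19 to 0.16 in the controls and -0.11, 0.40 and 1.14 in the Arhgef11Sglt2 libraries. Taking each gene equally, the mean class I deviation minus the mean class II deviation was -0.16 to 0.13 in the controls and -0.22, 0.17 and 0.58 in the Arhgef11Sglt2 group, so that by this measure replicate 1 lay below the control range and the other two above it. The group difference was 0.18 and became -0.03 without replicate 3 and 0.37 without replicate 1. No test was made of these sums, since the genes were chosen with earlier results known.

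**Figure D4:**
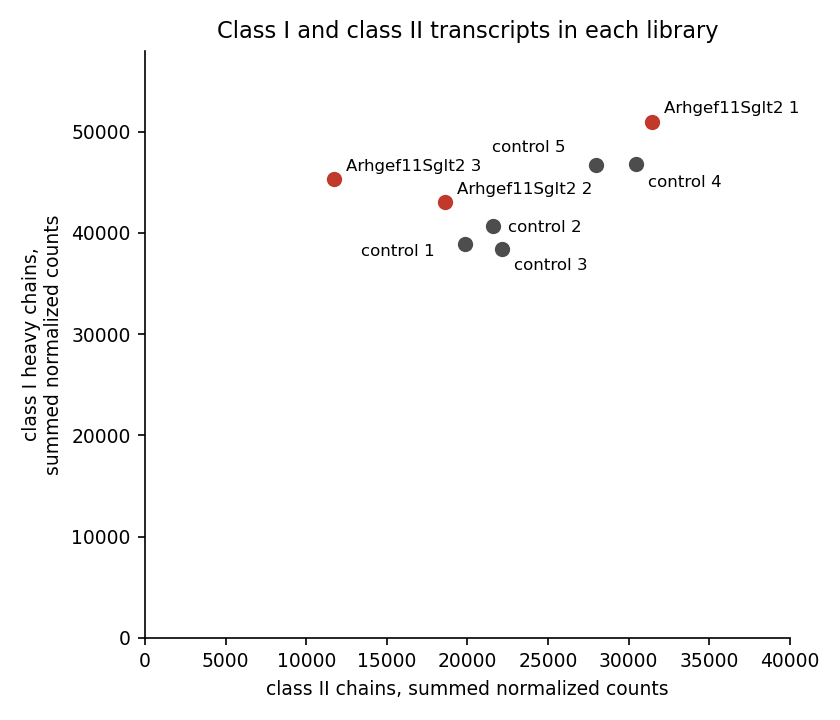
Summed normalized counts of the 16 class I heavy chain genes against those of the 4 class II chain genes, 1 point per library. Arhgef11Sglt2 replicate 3 has a class II sum of 11699, below the control range of 19867 to 30430, and a class I sum of 45283, within the control range of 38369 to 46810.

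The class II genes were also read within each range of library numbers. Among the controls, replicates 4 and 5, of the upper range, were the 2 highest for H2-Aa, H2-Ab1, H2-Eb1, Cd74 and Ciita. Arhgef11Sglt2 replicate 3, the lowest for these genes, is of the same range. This was not confined to class II. Control replicates 4 and 5 were also the 2 highest controls for H2-K1, H2-D1, H2-Q4 and B2m. The same held for the class I sums (46810 and 46738) and the leukocyte marker sums (5744 and 5871). An influence of the range itself was not tested. Within the lower range (3 controls against 2 libraries) the log2 differences were 0.23 for H2-Ab1, 0.15 for H2-Aa, 0.16 for H2-Eb1 and 0.32 for Cd74. Within the upper range (2 controls against 1 library) they were -1.34, -1.18, -1.11 and -1.26. Between the ranges 10 of 11 class II differences thus turned sign, while H2-Ob was negative in both (-0.12 and -0.37). For H2-Ab1, H2-Aa and H2-Eb1 the positive values of the lower range come from replicate 1, since replicate 2 lay below the 3 controls of that range. For H2-K1 the values were 0.26 and 0.02, for H2-D1 0.30 and 0.04, and for B2m 0.24 and -0.50. A limma fit on the 5 libraries of the lower range, added after the data were seen, left 3 residual degrees of freedom and called 0 of the 42 genes and 0.0% of all genes; 5 of the 42 and 9.98% of all genes had p under 0.05 before adjustment. The same fit on the 3 libraries of the upper range left 1 residual degree of freedom, which is the spread between its 2 controls, and the lone Arhgef11Sglt2 library is assumed to vary as they do. It called 9 of the 42 genes, all lower (Cd74, H2-Aa, H2-Ab1, H2-Eb1, H2-DMa, H2-DMb2, Ciita, B2m and Psmb9), against 7.07% of all genes called lower. This compares 1 library with 2 others, and in the Arhgef11Sglt2 group that library and the range cannot be told apart.

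Markers of macrophages and leukocytes varied across the libraries in the order of the class II genes. The 8 macrophage markers (among them Adgre1, Csf1r, Cd68, C1qa, C1qb, C1qc and Mrc1) had a mean log2 deviation of -0.10 to 0.11 in the controls and of 0.39, -0.00 and -0.41 in Arhgef11Sglt2 replicates 1, 2 and 3. Their summed level was 10017 to 12469 normalized counts in the controls and 16213, 11031 and 7155 in the Arhgef11Sglt2 libraries. C1qa, a complement gene of tissue macrophages, had 1673 to 2152 in the controls and 3596, 1851 and 1073 in the Arhgef11Sglt2 group. Adgre1, which encodes F4/80, had 633.6 to 1089 and 927.8, 699.4 and 243.5. Not all followed: Cd68, a lysosomal glycoprotein of macrophages, had 352 to 488.4 and 719.4, 341.7 and 432, so that its replicate 3 lay within the control range.

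The 5 general leukocyte markers deviated by 0.33, -0.07 and -0.42 in the 3 Arhgef11Sglt2 libraries (-0.20 to 0.17 in the controls), with sums of 6512, 4492 and 3019 against 3903 to 5871. The 8 dendritic cell markers deviated by 0.02, -0.18 and -0.25 (-0.14 to 0.15 in the controls), with sums of 1544, 1198 and 896 against 1020 to 1971. Clec9a, a receptor of cross-presenting dendritic cells, had 91.33, 130.8, 56.11, 187.5 and 285.7 in the controls and 89.95, 34.62 and 17.87 in the Arhgef11Sglt2 libraries (log2 difference -0.44, limma adjusted p = 0.167). B cell markers were low, with sums of 90, 99 and 174 against 99 to 165, and they did not share the order (-0.05, -0.04 and 0.08). Of the sum in Arhgef11Sglt2 replicate 3, 76.65 came from Cd22 alone, which had 12.17 to 27.42 in the controls. No marker of these 4 lists was at 0 in any library, and none passed the test. In bulk kidney RNA, fewer cells of a type and less RNA per cell cannot be told apart, and the part of these cells in the class II values was not tested.

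**Figure D5:**
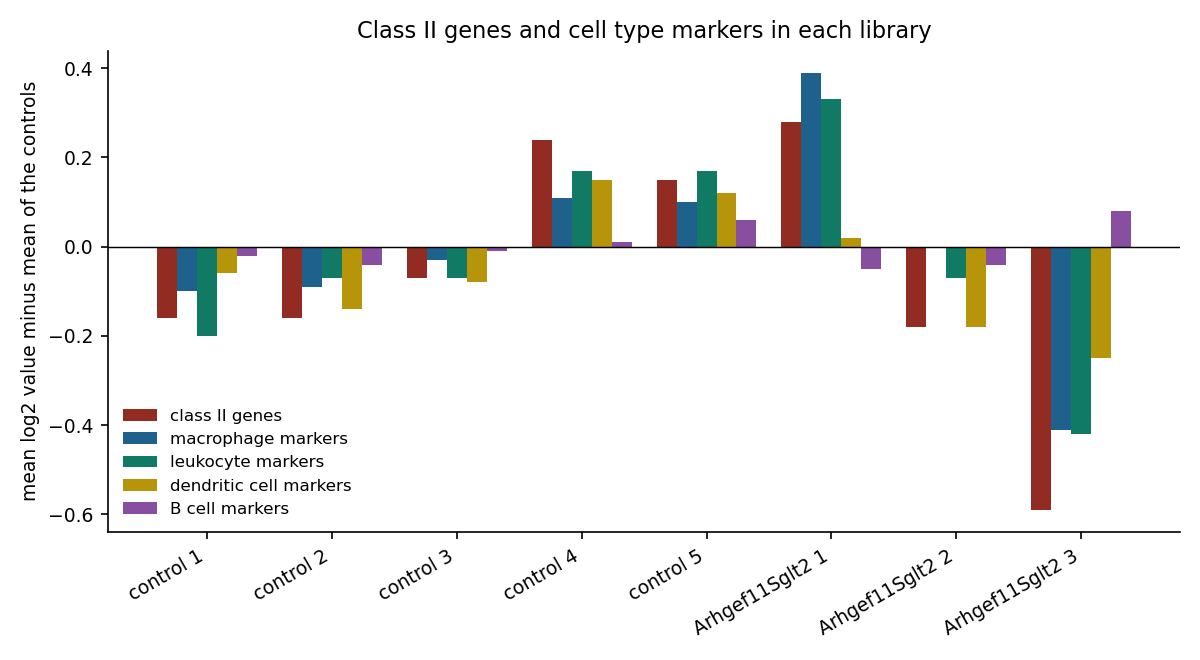
Mean log2 value minus the mean of the controls in each library for the 11 class II genes and for macrophage (8), leukocyte (5), dendritic cell (8) and B cell (6) markers. In Arhgef11Sglt2 replicate 1 the class II, macrophage and leukocyte bars are at 0.28, 0.39 and 0.33, and in replicate 3 at -0.59, -0.41 and -0.42.

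T and natural killer cell markers (7 genes) summed to 349, 197 and 191 normalized counts in the Arhgef11Sglt2 libraries against 252 to 574 in the controls, and endothelial markers (6 genes) to 12751, 15322 and 15563 against 9932 to 18711. Of 9 tubule and glomerulus markers, 2 passed the test, against 2.22% of all genes, both of the proximal tubule and both lower. These were Lrp2, which encodes megalin (log2 difference -0.73, limma adjusted p = 0.0462), and Slc34a1, a phosphate transporter (-0.72, limma adjusted p = 0.0491). Slc12a1, of the thick ascending limb, was lower by a similar amount but did not pass (-0.69, limma adjusted p = 0.0536). Slc5a2, also of the proximal tubule, was lower by less (-0.38, limma adjusted p = 0.214). Of the 9 differences, 6 were negative and 3 positive. Lrp2 passed in 10 and Slc34a1 in 6 of 19 alternative settings, and neither passed when any single control or Arhgef11Sglt2 replicate 3 was left out; Slc34a1 also did not pass without Arhgef11Sglt2 replicate 1 (adjusted p from 0.0144 to 0.454 for Lrp2 and from 0.0124 to 0.484 for Slc34a1). The order of the class II genes was not that of Lrp2, which had 70440, 85850 and 53235 in the 3 libraries.

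Genes that work beside the members were read from 6 lists. Of 7 lysosomal proteases and related genes that process antigen for class II, 1 passed, higher in the Arhgef11Sglt2 group, against 2.22% of all genes. This was Lgmn, the asparaginyl endopeptidase legumain, which also degrades filtered protein in the proximal tubule. It had 33721, 29885, 37200, 35000 and 26613 normalized counts in the controls and 44353, 55068 and 55619 in the Arhgef11Sglt2 libraries, without overlap. It was 1.59-fold higher (log2 difference 0.66, SE 0.13, limma adjusted p = 0.0389). Its replicate 1 was the lowest of the 3 libraries and replicates 2 and 3 were nearly equal, which is not the order of class II. The call held in 9 of 19 alternative settings (adjusted p from 0.0181 to 0.4), and was lost within either range of library numbers, without any 1 of the 5 controls or without Arhgef11Sglt2 replicate 2 or 3, and with a replicate block. Ctsl, a cathepsin, had 21966 ± 2220 (SD, n = 5) and 31464 ± 5285 (SD, n = 3). It did not pass (log2 difference 0.50, limma adjusted p = 0.065), nor did Ctsb (0.33, limma adjusted p = 0.188). Of 19 alternative settings Ctsl passed in 4, with a limma adjusted p of 0.03 without Arhgef11Sglt2 replicate 1 and up to 0.486 in others. Ctss, the cathepsin that clears the invariant chain in phagocytes, had 2050 to 3025 in the controls and 4307, 2930 and 2158 in the Arhgef11Sglt2 libraries, the order of Cd74.

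None of the 13 interferon gamma receptor and signalling genes passed (7 were higher in replicate 1 than in any control, against 22.5% of all genes). Ifngr1, a receptor chain, had 1793 to 2144 normalized counts in the controls and 3090, 2302 and 3211 in the Arhgef11Sglt2 libraries (log2 difference 0.43, limma adjusted p = 0.054; two-sided exact permutation p = 0.0179), and Ifngr2, the other chain, 1068 to 1583 and 2201, 1797 and 1644 (0.38, limma adjusted p = 0.0853; exact permutation p = 0.0179). Both receptor chains had all 3 libraries above all controls, and 14.3% of all genes had no overlap in either direction. Ifngr1 passed in 3 of 19 alternative settings (limma adjusted p from 0.0127, without Arhgef11Sglt2 replicate 2, to 0.465), and Ifngr2 in 0. The interferon-responsive gene Gbp2 instead had 861.4 to 1919 in the controls and 3261, 1467 and 971.5 in the Arhgef11Sglt2 libraries, which is the order of the class II genes.

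Of the 11 transcription factors of MHC promoters, 0 passed. Nfyb, a subunit of the factor that binds the Y box, had 723.7 ± 77.69 (SD, n = 5) and 896 ± 38.34 (SD, n = 3), a log2 difference of 0.20 (limma adjusted p = 0.15), and its partner Nfyc had -0.21 (limma adjusted p = 0.224). Rfx5, of the X box complex, had 744.9 to 1002 in the controls and 948.8 to 1124 in the Arhgef11Sglt2 libraries. Of the 6 chaperones that fold class I in the endoplasmic reticulum, 0 passed. Calr, calreticulin, had 26866 to 39496 in the controls and 32141, 17135 and 15558 in the Arhgef11Sglt2 libraries, and Hspa5, the general chaperone BiP, 26135 to 42039 and 33586, 14158 and 10585. Replicates 2 and 3 were below all controls for both (log2 differences -0.60 and -0.81, limma adjusted p = 0.16 and 0.178). Each passed in 3 of 19 alternative settings (limma adjusted p from 0.0128 to 0.687 for Calr and from 0.0122 to 0.691 for Hspa5). The lowest values came without Arhgef11Sglt2 replicate 1, where 1334 of all genes passed. None of 8 genes of the standard proteasome passed (Psmd1 0.10 and Psmb5 0.11 on the log2 scale). Nor did any of 6 costimulation and turnover genes (March1 -0.15 and Cd40 -0.10). March1, a ligase that turns over class II, passed only without Arhgef11Sglt2 replicate 1. That was 1 of 19 alternative settings (limma adjusted p from 0.041 to 0.91).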

How the data were processed

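Members and gene lists were chosen with earlier results of these data known. Per the labels' protocols, kidney RNA was made into stranded mRNA libraries (TruSeq) and sequenced on a NextSeq instrument. The submitters' processing notes name Salmon (version 1.10.0), DESeq2 and the build GRCm39; which annotation and gene filter were used is not stated there. The authors deposited log2 values on a variance-stabilized scale, read from the values: all 8 columns share a minimum of 8.1275. That minimum was taken as a zero count and the transformation inverted to give normalized counts, which per-library sums, means and folds use.

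Tests and log2 differences are on the deposited scale, which compresses low genes: limma 3.58.1 (R 4.3.3), group as the only term, variance trend, 6 residual degrees of freedom, Benjamini-Hochberg adjustment over 15948 genes at 0.05, tested on simulated data. Exact permutation tests ran over 56 splits (smallest p 0.0179). Symbols matched 15902 identifiers (99.71%). Genes named in full were the class II chains, classical class I chains, regulators, Tap1, Psmb8, Psmb9 and the largest difference of each role; of each other list, any gene that passed and up to 2 of the lowest p. Gbp2, Ctss, Rfx5 and single markers were named after their values were seen, and some genes of the lists are not reported singly here. Shared 31-base words were counted in GENCODE M21 transcripts, and the longest coding transcript gave the length per kilobase.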

Additional observations from a re-analysis of the deposited data

Results flagged for a closer look

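Among the 5 control libraries, 5 of the 42 genes had 1 library far from the others (a gap to the nearest control of over 0.71 of the whole range); chance alone gives about 1 in 20 groups. H2-Ob had 134.3 normalized counts in control replicate 5, against 47.14 to 59.47 in the other controls. H2-Q5 had 583.5 in the same library, against 115.1 to 164.8. Tap1, the transporter subunit, had 1350 in control replicate 4, against 811 to 934. Psme1, a proteasome activator subunit, had 3571 in control replicate 2, against 2743 to 2900. H2-Ke6 had 2152 in control replicate 1, against 1800 to 1885. No class II chain, classical class I chain, B2m or Cd74 was among them.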

How the results depend on the processing

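None of the 42 genes passed under 18 of 19 alternatives. The exception, added after seeing the data, was the fit on the upper library numbers alone (2 controls, 1 Arhgef11Sglt2 library), with 9 of the 42 and 1913 of all genes, a class I median of -0.11, a class II median of -0.752 and class I minus class II of 0.675. On the lower library numbers alone, also added, 0 of all genes passed, and these values were 0.0782, 0.229 and -0.091. The sign of single differences turned in 107 of 794 values, in 31 genes. Over all genes, 354 passed; with a replicate block the count was 0, with sample weights 874, and leaving out 1 library gave 24 to 1334: 187 without control replicate 1, 135 without 3, 24 without 4, 76 without 5, 1334 without Arhgef11Sglt2 replicate 1 and 45 without 3. The class I median (-0.00154) turned to 0.031 with a replicate block, 6.58e-05 with the library number range as a block, 0.0104 with sample weights and 0.0138 with equal totals, and leaving out 1 library gave -0.0409 to 0.0209. The class II median (-0.117) was -0.334 on the log2(normalized count + 1) scale and -0.0197 with a replicate block; leaving out 1 library gave -0.337 (without Arhgef11Sglt2 replicate 1) to 0.0384 (without replicate 3). Class I minus class II (0.175) was 0.313 and 0.311 with pseudocounts of 1 and 10, 0.477 from summed counts, 0.527 from classical class I chains alone and 0.111 with a replicate block; leaving out 1 library gave -0.026 to 0.373. The replicate numbers do not pair the libraries: same-numbered libraries correlated at -0.175, -0.088 and -0.007. Depth limits H2-Bl, H2-Eb2, H2-Oa and H2-M2, whose control means were under 25 normalized counts. The causes of these changes were not tested.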
